A study of Mus musculus with 24 samples.

Results

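Collagens are the proteins that give connective tissue and basement membranes their strength, and each of their alpha chains is encoded by its own gene. The genes described here are those whose symbol is Col, a number, the letter a and a number, such as Col1a1. This rule uses names and no measured value, and it chose 44 of the 53465 genes in the count table. By what their chains are known to build, 11 are fibrillar collagens, 9 are collagens of the basement membrane and 24 are other collagens.

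The level of each was followed in 24 tumors, 3 from each of 8 BURP lines, which are mouse bladder cancers kept by passage under the skin. Every line began as 1 bladder tumor of a C57BL/6NTac mouse that drank 0.1% BBN, a bladder carcinogen, from 8 weeks of age for up to 36 weeks, and was passaged in C57BL/6NTac hosts of the donor's sex. There are 6 basal/squamous (Ba/Sq) lines. BURP-12BaSq is male, as are BURP-17BaSq and BURP-18BaSq, whereas the donors of BURP-21BaSq, BURP-24BaSq and BURP-25BaSq were female. BURP-16SR is called stroma-rich and BURP-19NE neuroendocrine-like, and both are male. All 8 lines thus share the carcinogen, the strain and a host with an intact immune system, and there is no sample of normal bladder. A subtype other than Ba/Sq is represented by 1 donor tumor, so that subtype and line cannot be told apart for BURP-16SR and BURP-19NE. Tumor cells and stroma are both of mouse origin and were sequenced together. Fewer cells of a type and less RNA per cell cannot be told apart in such samples. Tumors are named by line and by the rest of their label, such as C74-MNT or P5, and whether any came from a drug-treated host is not stated.

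Collagen chains are hydroxylated in the endoplasmic reticulum, wind around each other into a rope-like helix, are secreted, and are then trimmed and cross-linked outside the cell. Types I, III, V and XI assemble into fibrils and are made mainly by fibroblasts and related mesenchymal cells, with type XI best known from cartilage. Type IV forms the sheet on which epithelium and endothelium rest, type VII the anchoring fibrils beneath it, and type XVII is a membrane protein of the hemidesmosome, by which basal epithelial cells hold on to that sheet.

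Levels were expressed as CPM, the counts of a gene scaled to a common library size, after TMM scaling, and where different genes are compared they were divided by exon length to give CPM per kb. Total counts per tumor lay between 9295747 and 25370356, and 3 counts, the smallest level taken as detectable, corresponded to 0.106 to 1.34 CPM. In tumor C102-M30 of BURP-25BaSq 61.9% of the counts fell on a ribosomal RNA gene, against 0.18% to 1.85% in the other 23 tumors. This left 7118 counts on collagens there, the smallest number of all tumors. The label of tumor C102-M1, BURP-25BaSq, is in doubt on 1 gene only. Its Col4a6 level was 0.169 CPM against 81.9 and 45.2 CPM in the other tumors of BURP-25BaSq, and 0.177 to 0.459 CPM in BURP-21BaSq. Col4a6 was as low in BURP-16SR, BURP-17BaSq, BURP-18BaSq and BURP-19NE (at most 0.700 CPM). Col25a1 did not go the same way: it ran from 2.69 to 7.54 CPM in BURP-25BaSq, highest in C102-M1, and from 11.3 to 33.3 CPM in BURP-21BaSq. Whether the label is right was not tested. Markers of squamous epithelium (7 genes) summed to between 8211 and 21880 CPM in the 18 Ba/Sq tumors, to between 4.41 and 7.21 CPM in BURP-16SR and to between 1.68 and 2.81 CPM in BURP-19NE. Fibroblast markers (10 genes) summed to 677, 1487 and 89.5 CPM in the BURP-16SR tumors C73-M10, C74-MNT and P5, and to between 48.2 and 1147 CPM in the Ba/Sq tumors. P5 thus lay inside the Ba/Sq range for this list, though not low in endothelial markers, as given with the comparison of that line.

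Collagens took between 0.163% and 2.64% of all counts, and 0.0728% in C102-M30, where most counts were ribosomal. Of the 44 genes, 25 were above 3 counts in every tumor, 17 in some and 2 in none. Those in none were Col9a1, of cartilage fibrils, and Col19a1, of basement membrane zones in muscle and brain. There were 21 collagens that passed 100 CPM in some tumor and 15 that stayed under 10 CPM in all of them. Per length, the highest mean levels over the 24 tumors were those of the type I chain Col1a1 (166 CPM per kb), the hemidesmosome gene Col17a1 (121 CPM per kb), Col3a1 (92.6 CPM per kb), Col1a2 (49.4 CPM per kb) and the anchoring fibril gene Col7a1 (40.7 CPM per kb). The type IV chains Col4a1 and Col4a2 followed at 36.7 and 31.1 CPM per kb. The order of Col17a1 and Col3a1 was the other way round when the longest transcript replaced the union of exons as the length, with 163 CPM per kb for Col3a1, 130.3 for Col17a1 and 115 for Col1a2.

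**Figure D1:**
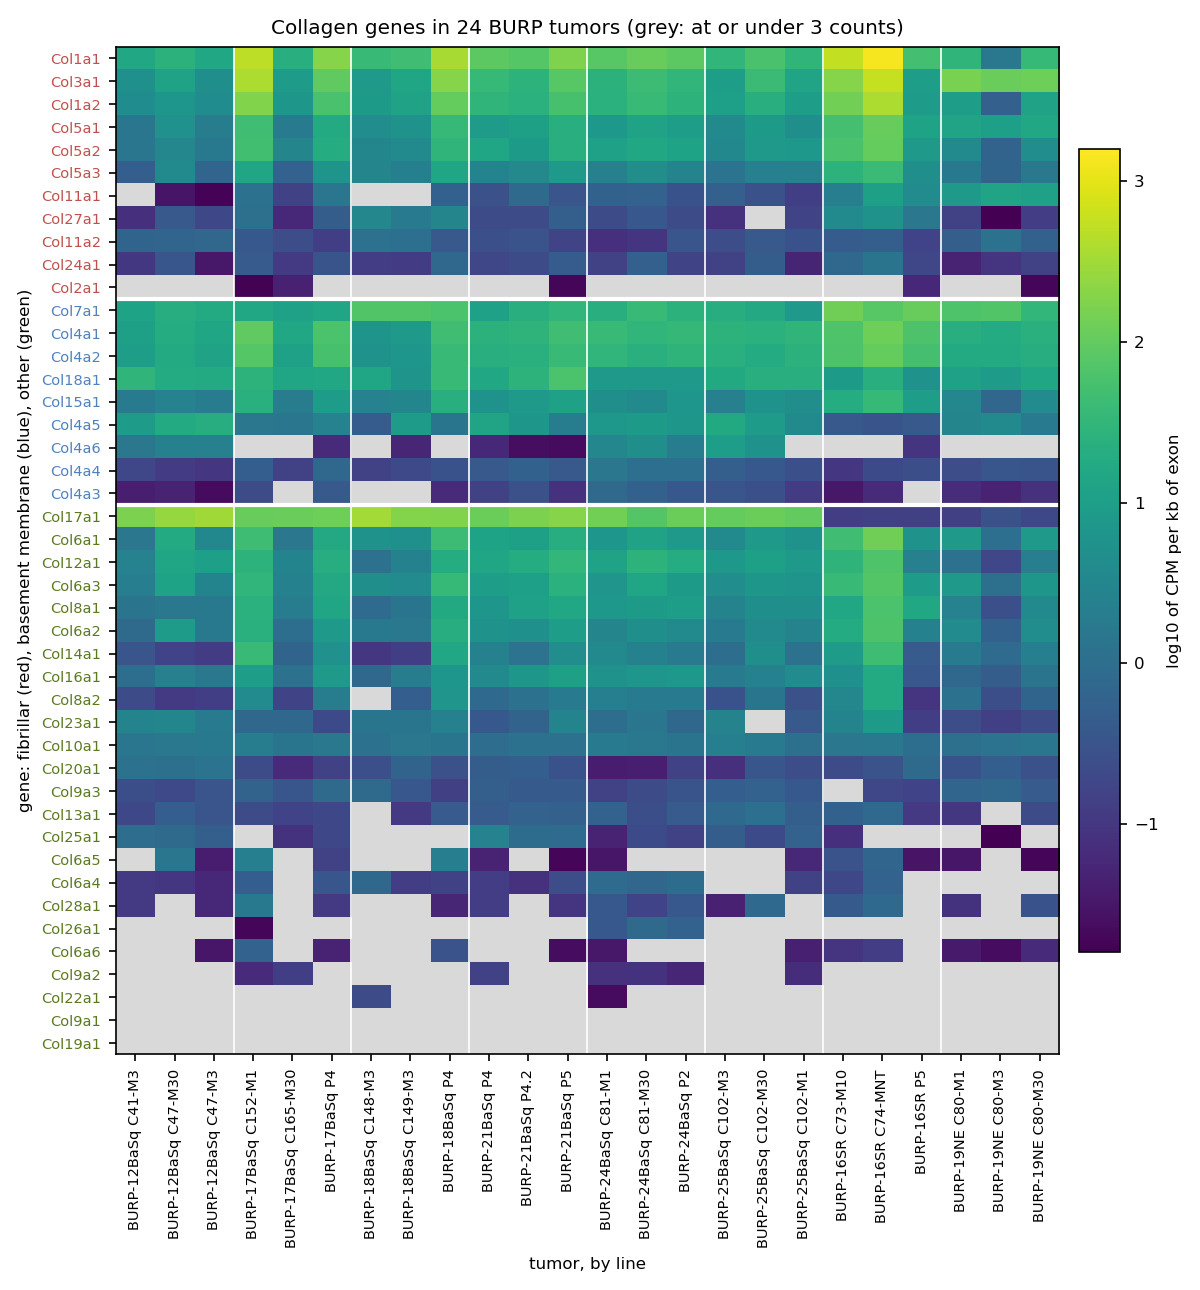
Level of the 44 collagens (rows, grouped by class) in the 24 tumors (columns, grouped by line), as the log10 of CPM per kb; grey marks levels of 3 counts or fewer. Col17a1 is high in the 18 Ba/Sq tumors (436 CPM or more) and near its floor in BURP-16SR and BURP-19NE (1.69 CPM or less), while Col11a1 is highest in BURP-19NE.

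The sum over all collagens varied widely within some lines. In BURP-16SR it was 12440 CPM in C73-M10, 28770 CPM in C74-MNT and 3211 CPM in P5, and BURP-19NE had 3432, 2549 and 3017 CPM. The lowest sum of all, 1635 CPM, was that of C165-M30 in BURP-17BaSq, whose 3 tumors averaged 7431 ± 6533 CPM (SD). Among the 25 genes above 3 counts in every tumor, the median ratio of the highest to the lowest tumor of a line was 9.4 in BURP-17BaSq, 8.23 in BURP-18BaSq and 7.31 in BURP-16SR. It was 1.63 to 2.6 in the other 5 lines. Single tumors carried much of this: 17 of the 25 genes had their highest level in C74-MNT of BURP-16SR, and among the 18 Ba/Sq tumors 12 had it in C152-M1 of BURP-17BaSq.

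The makeup of the collagen RNA differed by line as well. Averaged over 24 tumors, fibrillar collagens made up 37.7% of the collagen RNA per length, basement membrane collagens 25.8% and the others 36.5%. In BURP-12BaSq the fibrillar share was 9.53% ± 2.80 (SD, n = 3) and the share of the others, led by Col17a1, was 68.3%. In BURP-19NE it was the reverse, with 57.9% ± 4.59 fibrillar and 6.88% ± 3.58 others (SD, n = 3). BURP-16SR had a low share of others as well (11.9% ± 1.94, SD, n = 3), but its tumors differed in the rest: the fibrillar share was 69.1% in C73-M10, 75.3% in C74-MNT and 26.7% in P5, where basement membrane collagens took 63.1%.

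**Figure D2:**
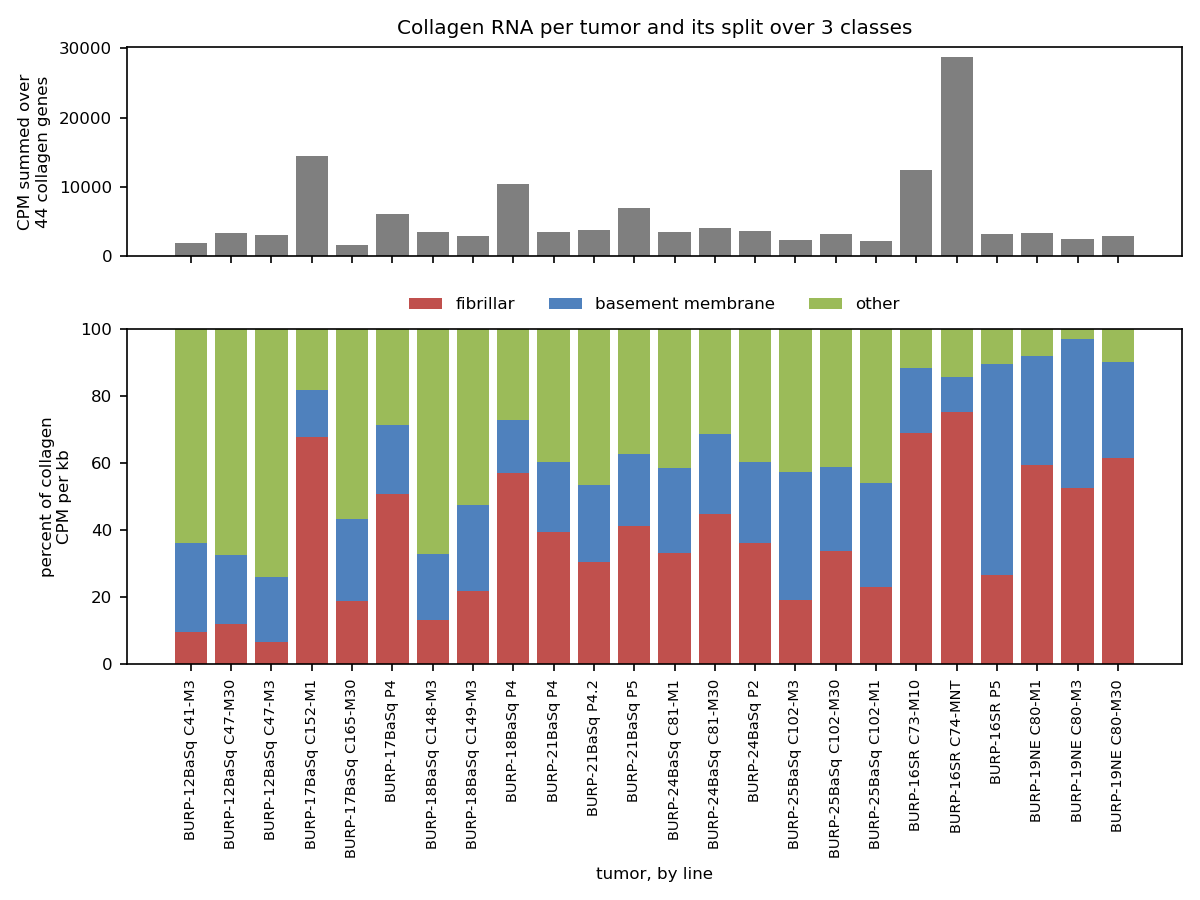
Top, summed CPM of the 44 collagens in each tumor; bottom, percent of the summed CPM per kb in fibrillar, basement membrane and other collagens. Bars are single tumors grouped by line; the highest sum is that of C74-MNT in BURP-16SR (28770 CPM), and the share of other collagens is smallest in BURP-19NE and BURP-16SR.

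The DNA just before the start is shown for 4 genes whose levels did not follow those of Col1a1 in all lines. They are Col3a1 and Col11a1, which were high relative to Col1a1 in BURP-19NE, and Col7a1 and Col17a1, the pair that anchors epithelium. Each run holds up to 150 bases upstream of the start, 5′ to 3′ on the gene's strand, from RefSeq on GRCm38.p6, with capitals marking 3 motifs searched on both strands. The TATA box was searched as TATAAA. The second motif, CCAAT, reads ATTGG when it lies on the other strand. The GC box was searched as GGGCGG.
Col3a1, chr1:45311388-45311537, plus strand: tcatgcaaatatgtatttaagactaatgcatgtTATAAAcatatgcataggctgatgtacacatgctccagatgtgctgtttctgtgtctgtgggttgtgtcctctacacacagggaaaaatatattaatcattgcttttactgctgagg
Col11a1, chr3:114030390-114030539, plus strand: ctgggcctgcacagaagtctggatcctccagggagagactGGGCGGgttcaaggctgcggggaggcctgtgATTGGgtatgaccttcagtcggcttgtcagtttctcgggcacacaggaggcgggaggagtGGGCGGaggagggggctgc
Col7a1, chr9:108953436-108953585, plus strand: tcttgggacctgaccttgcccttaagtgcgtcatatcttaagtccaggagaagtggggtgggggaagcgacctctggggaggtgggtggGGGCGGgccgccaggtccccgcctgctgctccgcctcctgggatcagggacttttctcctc
Col17a1, chr19:47692095-47692192, minus strand: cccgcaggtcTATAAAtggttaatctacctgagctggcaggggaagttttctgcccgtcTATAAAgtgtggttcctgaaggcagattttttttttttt
The run for Col17a1 has 98 bases, since the rest overlaps an annotated exon. TATAAA was present in 7.57% of 32851 such windows over the genome, GGGCGG in 28.6% and CCAAT in 24.5%. Windows were found for 35 of the 44 collagens, 38 windows in all, of which 4 held TATAAA, 19 held GGGCGG and 8 held CCAAT. These matches describe the letters in the window.

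Type I collagen, a polymer of Col1a1 and Col1a2 chains, was the most abundant fibrillar collagen per length. On GRCm38, Col1a1 lies on chromosome 11 from 94936224 to 94953042 and Col1a2 on chromosome 6 from 4504814 to 4541544. Col1a1 stood at 3636, 8844 and 334 CPM in the BURP-16SR tumors C73-M10, C74-MNT and P5, at 195, 10.4 and 237.7 CPM in the BURP-19NE tumors C80-M1, C80-M3 and C80-M30, and at 97.2 CPM in the lowest, 436 CPM in the median and 3343 CPM in the highest of the 18 Ba/Sq tumors. C73-M10 and C74-MNT were above all Ba/Sq tumors, P5 was below their median, and C80-M3 was below all of them. The level of Col1a2 followed that of Col1a1 over the 24 tumors (Spearman's rho 0.973, a description, as the genes share library and depth). Col1a2 stood at 1697, 4881 and 114 CPM in BURP-16SR, and in BURP-19NE it was lowest in C80-M3 as well, at 6.85 CPM.

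Col3a1, the chain of type III collagen, which runs with type I in stretchable tissue, broke with that pattern in BURP-19NE. Its level was 1538, 1127 and 1242 CPM in C80-M1, C80-M3 and C80-M30, against 1891, 5745 and 97.7 CPM in BURP-16SR and a lowest, median and highest value of 48.5, 263 and 3833 CPM in the Ba/Sq tumors. Per length, the ratio of Col3a1 to Col1a1 was 5.28, 72.6 and 3.49 in the 3 BURP-19NE tumors and from 0.196 to 0.767 in the other 21. The groups did not overlap. The type V chains, which sit inside type I fibrils and control their width, parted in the same line: the ratio of Col5a1 to Col5a2 per length was 3.29, 17.6 and 3.47 in BURP-19NE and 0.636 to 1.62 elsewhere. With the longest transcript as the length, Col3a1 to Col1a1 was 8.41, 115.7 and 5.57 in BURP-19NE and at most 1.22 elsewhere. Both ratios were picked after their values were seen and carry no test.

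**Figure D3:**
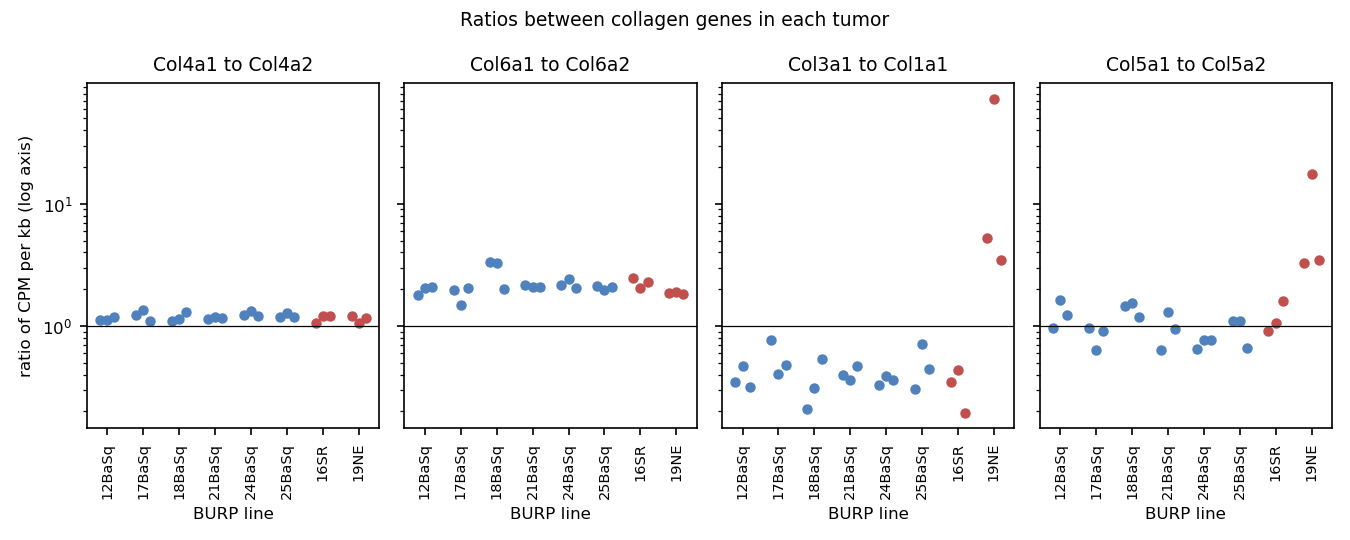
Ratio of the length-scaled levels of collagen chains in each tumor, on a log axis, by line. The chains are of the same collagen type, except for Col3a1 to Col1a1, which are of different types. Col4a1 to Col4a2 stays between 1.05 and 1.34 in all 24 tumors, while Col3a1 to Col1a1 and Col5a1 to Col5a2 are higher in the 3 tumors of BURP-19NE than in the other 21.

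Type V levels themselves were highest in BURP-16SR. Col5a1 reached 445, 942 and 108 CPM in that line and 111, 91.0 and 132 CPM in BURP-19NE, and it ran from 12.1 to 389.5 CPM with a median of 66.8 CPM in the Ba/Sq tumors. Col5a2 reached 553, 1004 and 76.1 CPM in BURP-16SR, and 38.1, 5.85 and 43.0 CPM in BURP-19NE, against 14.3 to 459.9 CPM with a median of 77.5 CPM in Ba/Sq. As for Col1a1, C73-M10 and C74-MNT stood above every Ba/Sq tumor and P5 did not.

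Col11a1, a type XI chain found inside cartilage fibrils and also in activated fibroblasts, did not share the pattern of type I. It stood at 104, 167 and 147 CPM in BURP-19NE and at 28.2, 139 and 52.2 CPM in BURP-16SR, while the Ba/Sq tumors ran from 0 to 18.5 CPM with a median of 3.61 CPM. All 6 tumors of BURP-16SR and BURP-19NE lay above all 18 Ba/Sq tumors. Among the Ba/Sq lines, BURP-12BaSq was at 0.0834, 0.382 and 0.222 CPM and BURP-17BaSq at 14.7, 1.85 and 18.5 CPM. In the C80-M3 tumor Col11a1 exceeded Col1a1 per length by a ratio of 8.27, which was 0.274 and 0.318 in the other BURP-19NE tumors and at most 0.0805 in the other lines. Of the markers of cartilage and bone, 2 of the 4 tested were called higher in BURP-16SR and 1 in BURP-19NE. Acan, the cartilage proteoglycan, stood at 158.9, 93.7 and 80.8 CPM in BURP-16SR and at 0.421, 4.90 and 11.9 CPM in BURP-19NE. The Ba/Sq tumors reached at most 1.157 CPM, so C80-M1 lay inside their range. Acan passed the filter on low counts mainly through the tumors where it is high. Its log2 fold changes, 8.95 in BURP-16SR and 4.63 in BURP-19NE, are therefore descriptions with no test. Matn1, a matrix protein of cartilage, was at 0 in both lines. Sox9, Comp and Alpl were not called in BURP-19NE, with log2 fold changes of -1.84, -2.045 and -4.948. In BURP-16SR Comp was called higher (3.698), while Sox9 (-0.032) and Alpl (-0.617) were not called. The part of such cells in the result was not tested.

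Col27a1, of developing cartilage, reached 51.3, 73.1 and 20.1 CPM in BURP-16SR, 42.4, 23.9 and 38.8 CPM in BURP-18BaSq, and 1.94, 0.211 and 1.68 CPM in BURP-19NE. The cartilage chain Col2a1 did not exceed 0.42 CPM in any Ba/Sq tumor.

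Among basement membrane collagens, Col4a1 and Col4a2, whose chains form the type IV network under nearly every epithelium and vessel, varied together from tumor to tumor. Col4a1 stood at 489, 929 and 472 CPM in BURP-16SR and at 160.2, 143 and 180.0 CPM in BURP-19NE, and from 46.8 to 711 CPM with a median of 207 CPM in the Ba/Sq tumors. The BURP-16SR tumors lay in the upper part of the Ba/Sq range or above it, and P5, low in type I, was close to C73-M10. The ratio of Col4a1 to Col4a2 per length was 1.05 to 1.34 in all 24 tumors, and the rank correlation of the levels was 0.991 over them, a description over libraries that both genes share. The genes lie head to head, and their annotated first exons overlap by 22 bases, printed on the plus strand with the GC box GGGCGG in capitals, which is the stretch the pair shares.
Col4a1 and Col4a2, shared start, chr8:11312805-11312826: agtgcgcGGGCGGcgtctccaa
Since strand was not stated to be used in counting, reads of this overlap could be shared, but it is a small part of both transcripts.

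Col4a5 and Col4a6, the X-linked chains found in the basement membrane of skin, smooth muscle and kidney, differed far more between lines. Col4a5 stood at 2.71, 2.09 and 2.66 CPM in BURP-16SR, below the lowest Ba/Sq tumor (3.02 CPM), and at 20.4, 24.7 and 13.1 CPM in BURP-19NE, inside the Ba/Sq range, which had a median of 49.2 CPM and reached 141 CPM. Col4a6 was above 10 CPM in BURP-12BaSq (12.3, 20.3 and 18.7 CPM), in BURP-24BaSq (26.2, 38.7 and 15.6 CPM) and in C102-M3 and C102-M30 of BURP-25BaSq. It was at most 0.700 CPM in the 15 other tumors and C102-M1, with the genes only 1308 bases apart, head to head. Col4a3 and Col4a4, the chains of the kidney's filter, are also head to head, 71 bases apart, and were low: the highest levels were 8.36 CPM for Col4a3 and 16.4 CPM for Col4a4, both in C81-M1 of BURP-24BaSq.

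Col7a1, the chain of the anchoring fibrils, was highest in BURP-16SR, at 1354, 825 and 1106 CPM. BURP-18BaSq followed with 725, 724 and 619.8 CPM and BURP-19NE with 672, 719 and 330.2 CPM, whereas the other 5 Ba/Sq lines ran from 81.7 to 401 CPM. No tumor of BURP-16SR overlapped with any Ba/Sq tumor. The multiplexins of basement membranes, which carry sugar chains, went separate ways: Col15a1 stood at 128, 224 and 64.5 CPM in BURP-16SR and at 20.96, 4.59 and 25.96 CPM in BURP-19NE, and Col18a1, the source of endostatin, was highest in P5 of BURP-21BaSq (420.2 CPM) and stood at 58.1, 152.2 and 41.3 CPM in BURP-16SR.

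Col17a1, the hemidesmosome collagen, divided the Ba/Sq lines from BURP-16SR and BURP-19NE without overlap. Its gene spans chromosome 19 from 47646344 to 47692094 on the minus strand of GRCm38. Its level was 0.763, 0.851 and 0.839 CPM in BURP-16SR and 0.842, 1.69 and 1.135 CPM in BURP-19NE, and 436, 795 and 1936 CPM in the lowest, median and highest Ba/Sq tumor. Within a line its highest tumor exceeded its lowest by a factor of 1.12 to 2.0, whereas that factor ran from 1.39 to 26.5 for Col1a1. Squamous markers were low in the same tumors, and 3 of the 7 (Krt14, Trp63 and Dsg3) were at or under 3 counts in every BURP-16SR tumor.

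Of the remaining collagens, the type VI chains form beaded microfilaments around cells. Col6a1 stood at 207, 563 and 25.1 CPM in BURP-16SR, at 34.1, 4.64 and 35.9 CPM in BURP-19NE and at 6.55 to 198 CPM, with a median of 34.0 CPM, in Ba/Sq. Col6a2 and Col6a3 had the same highest tumor, at 526 and 876 CPM. The tumor C80-M3 had the lowest level of all 3 genes over the 24 tumors. Col12a1 and Col14a1, which lie along the surface of type I fibrils, differed in BURP-19NE: Col12a1 stood at 18.7, 2.85 and 32.5 CPM there against 17.4 to 494 CPM in Ba/Sq, and Col14a1 at 11.95, 6.17 and 16.02 CPM against 0.687 to 259 CPM. In BURP-16SR they stood at 424, 992 and 37.0 CPM and at 60.4, 314 and 3.01 CPM.

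The network collagen Col8a1, found around vessels and smooth muscle, stood at 117, 482 and 124 CPM in BURP-16SR and at 20.9, 2.06 and 30.4 CPM in BURP-19NE, with a median of 45.5 CPM and a range from 6.87 to 197.0 CPM in Ba/Sq. Unlike Col1a1 it was no lower in P5 than in C73-M10. The type V chain Col5a3, which is known from fat and muscle, stood at 181, 277 and 33.1 CPM in BURP-16SR and at 11.5, 4.32 and 10.7 CPM in BURP-19NE. The fibril-associated Col16a1 was at 120.0 CPM in C74-MNT but at 2.45 CPM in P5, the lowest value of the 24 tumors. In the same line the membrane collagen Col23a1 stood at 16.7, 47.6 and 0.769 CPM, so that P5 was again apart from the others.

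Several low collagens were carried by single tumors or lines. Col6a5, a type VI chain of skin, was at 21.5 CPM in C152-M1 of BURP-17BaSq, 20.5 CPM in P4 of BURP-18BaSq and 13.6 CPM in C47-M30 of BURP-12BaSq, and at a median of 0.241 CPM over the Ba/Sq tumors. Col6a4 was highest in BURP-24BaSq, at 7.54, 5.99 and 7.94 CPM. In BURP-25BaSq it was at 0.0445 CPM in C102-M3 and at 1.24 CPM in C102-M1, the tumor of doubtful label. It had 0 counts in C102-M30, but 3 counts correspond to 1.34 CPM there, so that tumor cannot be told apart from C102-M1. Col25a1 was highest in BURP-21BaSq, at 33.3, 11.8 and 11.3 CPM. Col22a1, of muscle and tendon junctions, passed 3 counts in 2 tumors, with 2.06 CPM in C148-M3 of BURP-18BaSq as its highest level. These levels rest on few counts, and Col10a1, the collagen of hypertrophic cartilage, was at 3.03 to 7.12 CPM in the Ba/Sq tumors.

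**Figure D4:**
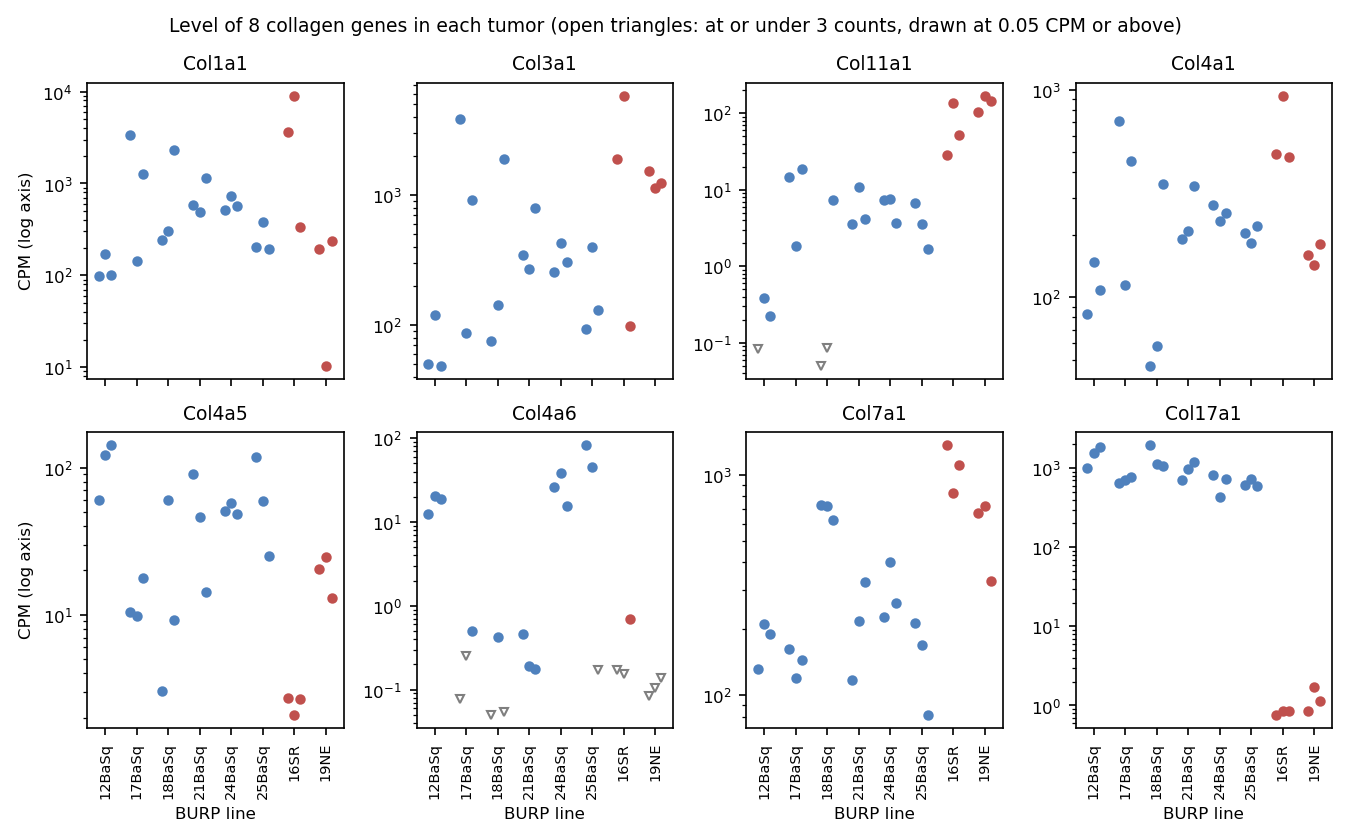
CPM of 8 collagens in each tumor, by line, on a log axis; red points are BURP-16SR and BURP-19NE, blue points the Ba/Sq lines, and open triangles mark 3 counts or fewer. Col17a1 separates the red from the blue points without overlap, Col11a1 is at 28.2 CPM or more in all 6 red points, and Col1a1 spans 334 to 8844 CPM inside BURP-16SR.

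Levels of the chains of types I, III and V ranked with the fibroblast markers, and those of Col7a1 and Col17a1 did not. Over the 18 Ba/Sq tumors, 15 of the 25 genes detected throughout had a rank correlation above 0.8 with the summed fibroblast markers, among them Col5a2 (0.93), Col4a1 (0.93), Col12a1 (0.93), Col3a1 (0.91) and Col1a1 (0.88). The coefficients of Col7a1 (0.06), Col18a1 (0.29), Col17a1 (-0.33) and Col4a5 (-0.35) were small or negative. Over all 24 tumors 8 of the 25 stayed above 0.8. These are descriptions over tumors that share a library and its depth for both measures, and tumors of a line share their origin.

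Compared with the 18 Ba/Sq tumors, BURP-16SR had more RNA of types I, IV, V, VI, VII and XI and less of types XVII and IV alpha 5. A gene was called at a Benjamini-Hochberg adjusted p under 0.05 in edgeR's quasi-likelihood test with a change of more than 2-fold. Of the 39 collagens tested, 18 were called, 15 higher and 3 lower, where 19.2% of all 21028 genes tested were called, 10.5% higher and 8.62% lower. The median log2 fold change was 1.51 over the collagens and -0.03 over all genes. By class, 7 of 10 fibrillar collagens were higher, 4 of 9 basement membrane collagens were higher and 1 lower, and 4 of 20 others were higher and 2 lower. Not tested for low counts were Col2a1, Col9a1, Col9a2, Col19a1 and Col22a1.

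The fall of Col17a1 was the largest change, a log2 fold change of -10.12 ± 0.65 (SE, adjusted p = 1.87e-10), from 971 ± 430 CPM (SD, n = 18) to 0.818 ± 0.048 CPM (SD, n = 3). Col4a5 fell by 4.31 ± 1.05 (adjusted p = 0.00473) on the log2 scale. Among those that rose, Col11a1 changed by 3.89 ± 0.85 (adjusted p = 0.00199) and Col7a1 by 2.04 ± 0.46 (adjusted p = 0.00276), from 280 ± 204 CPM (SD, n = 18) to 1095 ± 265 CPM (SD, n = 3). These 4 were the called collagens whose tumors did not overlap with Ba/Sq, 2 above and 2 below, where 5.83% and 5.57% of all genes lay wholly above and below.

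The higher levels of type I and most other chains rested on C74-MNT and, for some, on C73-M10. Col1a1 was higher by 2.67 ± 0.77 (log2, SE, adjusted p = 0.0147), with means of 4271 ± 4290 CPM (SD, n = 3) and 713 ± 860.3 CPM (SD, n = 18). Other rises of like size were those of Col5a3 (2.61), a type V chain, Col27a1 (2.49), Col1a2 (2.45), Col5a1 (2.43), Col6a1 (2.34), Col5a2 (2.32) and Col6a2 (2.30), with adjusted p from 0.0058 to 0.0344. Col3a1 was not called, at 2.27 ± 0.96 (adjusted p = 0.0873). Without C74-MNT 4 collagens were called, the 4 whose tumors do not overlap, and Col1a1 stood at 1.57 (adjusted p = 0.277). Without C73-M10 9 were called, without P5 17, without C152-M1 of BURP-17BaSq 21, with Col3a1 at 2.87 (adjusted p = 0.0122), and without C102-M1 and C102-M30 together 11. With counts summed per line only Col17a1 was called.

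Markers of some stromal cells were called higher in the same comparison, as were 10.5% of all genes. These were 3 of 10 for fibroblasts (Pdgfra, Pdgfrb and Thy1), 3 of 6 for endothelium and 5 of 7 for smooth muscle and pericytes. Of those for leukocytes (4 genes), adipocytes (3 genes) and skeletal muscle (5 genes) 0 were called. All 7 squamous markers were called lower, as were 8.62% of all genes. Apart from Cdh1 they were at or under 0.593 CPM in BURP-16SR. These passed the filter on low counts through the Ba/Sq tumors, so their falls are descriptions with no test. Endothelial markers summed to 237, 349 and 343 CPM in C73-M10, C74-MNT and P5, which did not follow the order of Col1a1, and smooth muscle markers to 262.5, 481.5 and 97.0 CPM, which did. C74-MNT also carried 100.2 CPM of skeletal muscle markers. The part of these cells in the collagen changes was not tested.

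**Figure D5:**
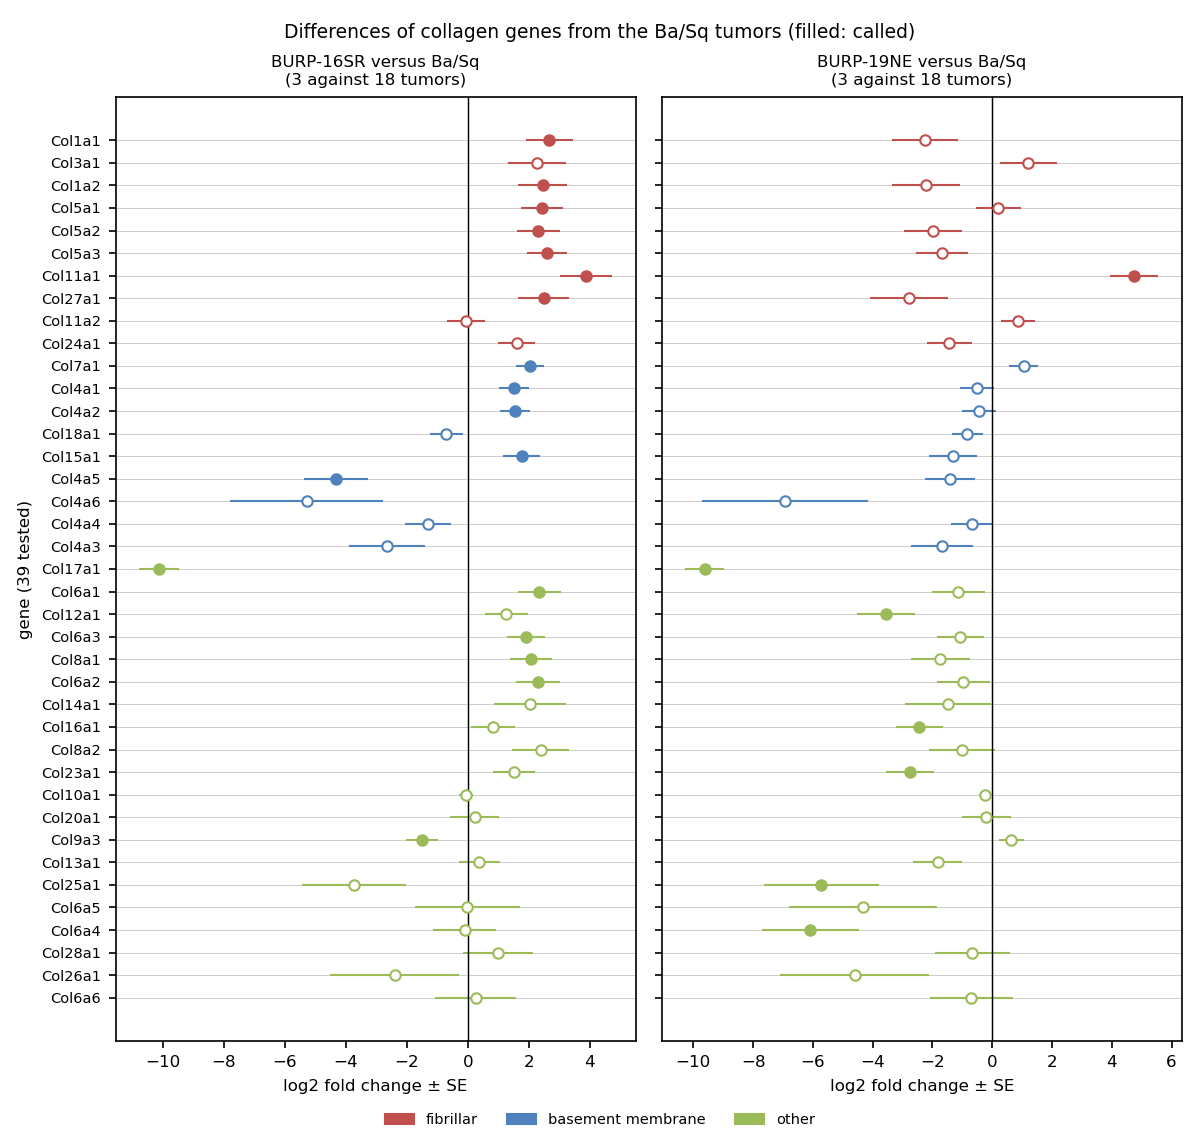
Log2 fold change with its standard error for the 39 collagens tested, BURP-16SR (left) and BURP-19NE (right) against the same 18 Ba/Sq tumors; filled points were called, colors give the class. In BURP-16SR 15 filled points lie above 0 and 3 below; in BURP-19NE only Col11a1 lies above and 6 lie below.

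In BURP-19NE Col11a1 was higher and Col17a1 lower than in every Ba/Sq tumor. The share of collagens called was not above that of all genes. The comparison shares its 18 Ba/Sq tumors with the one for BURP-16SR. Of 39 collagens tested 7 were called, 1 higher and 6 lower, against 24.3% of all 20995 genes, 9.33% higher and 15% lower. The median log2 fold change was -1.41 over the collagens and -0.14 over all genes. All 6 that fell were of the class of other collagens, 6 of 20 tested, and none of the 9 basement membrane collagens was called, 2 having an unadjusted p under 0.05.

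Col11a1 rose by 4.76 ± 0.80 (log2, SE, adjusted p = 1.10e-04), to 139 ± 32.2 CPM (SD, n = 3) from 5.13 ± 5.29 CPM (SD, n = 18). Col17a1 fell by 9.61 ± 0.65 (adjusted p = 3.69e-10). Both had no overlap between the groups, where 9.46% of all genes lay wholly above and 8.5% wholly below. The other called genes were Col6a4, a type VI chain that stood at 0.0421, 0 and 0.0454 CPM in BURP-19NE (log2 fold change -6.09 ± 1.62), Col25a1, a membrane collagen of neurons (-5.72 ± 1.92), Col12a1 (-3.54 ± 0.97), the membrane collagen Col23a1 (-2.76 ± 0.81) and Col16a1, which lies along fibrils (-2.44 ± 0.79). The adjusted p of Col12a1, Col23a1 and Col16a1 lay between 0.00626 and 0.0257. Col6a4 and Col25a1 were under 3 counts in most of these tumors, so the fitted changes depend on the prior count. Both passed the filter on low counts through the Ba/Sq tumors, so their differences are descriptions with no test.

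The type I and type III chains were not called in BURP-19NE, with log2 fold changes of -2.25 ± 1.11 for Col1a1 (adjusted p = 0.125) and 1.21 ± 0.95 for Col3a1 (adjusted p = 0.338), nor was Col7a1 (1.05, adjusted p = 0.111). Without C80-M3 4 collagens were called, without Col16a1, Col23a1 and Col25a1. DESeq2 called 13, and counts summed per line left Col11a1 and Col17a1. The fibroblast marker Dpt was higher at a mean of 97.9 CPM against 8.02 CPM, and the other 9 of its list were not called. All 5 skeletal muscle markers were called higher, as were 9.33% of all genes. Their sums were 520.2, 2.79 and 4.81 CPM in C80-M1, C80-M3 and C80-M30, and 0 to 30.8 CPM in the Ba/Sq tumors. Only C80-M1 thus lay above the Ba/Sq range. The part of fibroblasts and muscle in the result was not tested.

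Set directly against BURP-19NE, BURP-16SR had more RNA of Col1a1, of the 3 type V chains, of Col4a1 and Col4a2, and less of Col4a5. Of 33 tested 15 were called, 13 higher and 2 lower, against 23.6% of all 17556 genes, 14.8% higher and 8.86% lower, and the median log2 fold change was 2.28 against 0.06 over all genes. The 3 tumors of each line did not overlap for 13 of the 15, which in designs of this size is common: 23.4% of all genes lay wholly above and 28.3% wholly below. The type IV network differed both ways, with log2 fold changes of 2.07 ± 0.31 for Col4a1 (adjusted p = 0.00442) and -2.87 ± 0.30 for Col4a5 (adjusted p = 0.00153), each with its SE. Col27a1 was higher by 5.32 ± 0.84 (adjusted p = 0.00511), Col12a1 by 4.86 (adjusted p = 0.0342) and Col1a1 by 4.97 ± 1.53 (adjusted p = 0.0454). Col4a1, Col4a2, Col4a5, Col5a3 and Col27a1 were called whichever of the 6 tumors was left out, while the number called ran from 5 without C80-M1 to 25 without P5 of BURP-16SR.

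Within the Ba/Sq subtype few collagens were called in any single line. In BURP-18BaSq Col7a1 was higher by 1.81 ± 0.30 (log2, SE, adjusted p = 5.15e-04), with a mean of 689.7 ± 60.6 CPM (SD, n = 3) and of 198 ± 84.0 CPM in the other lines (SD, n = 15), and Col27a1 by 3.17 ± 0.54 (adjusted p = 7.19e-04). Both were free of overlap, as were 4.26% of all genes in that direction. Col25a1 was called lower in BURP-18BaSq, where it was at 0, 0 and 0.160 CPM, a call lost without C148-M3 or C149-M3. It passed the filter on low counts through the other lines, so its difference is given as a description with no test. These 3 were called of 38 tested, where 10.1% of all genes were. Without P4 of BURP-18BaSq, a tumor with 2337 CPM of Col1a1 against 242 and 307 CPM in the others of its line, 8 were called.

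In BURP-24BaSq Col26a1, a little-studied secreted collagen, was at 3.06, 6.996 and 4.84 CPM and at most 0.254 CPM in all other tumors. It was above 3 counts in 4 of the 24 tumors and passed the filter on low counts through BURP-24BaSq, so its difference is given as a description with no test. Col4a4 was higher by 1.87 ± 0.44 (adjusted p = 0.0285), with the call lost when any BURP-24BaSq tumor was left out. Neither overlapped with the other Ba/Sq lines (2.61% of all genes), and they were the 2 called of 38 collagens, Col26a1 by way of the filter, against 1.65% of all genes. In BURP-12BaSq the fibril-associated Col20a1, at 6.38, 5.69 and 6.40 CPM, was higher by 2.27 ± 0.54 (adjusted p = 0.0176) without overlap (4.6% of all genes). Col11a1 was called lower there, at 0.0834 to 0.382 CPM. It passed the filter on low counts through the other lines, so this is a description with no test. These 2 of 38, against 4.59% of all genes, were both lost when any BURP-12BaSq tumor was left out, and 7 were called without C148-M3 of BURP-18BaSq.

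No collagen was called by edgeR in BURP-17BaSq, BURP-21BaSq or BURP-25BaSq, where 1.07%, 0.0195% and 0.273% of all genes were. At an unadjusted p under 0.05 there were 9, 5 and 2 collagens, and DESeq2 called 2, 1 and 0. In BURP-17BaSq the 9 included Col3a1, at 3833, 86.0 and 923 CPM in C152-M1, C165-M30 and P4, where fibroblast markers summed to 1147, 93.2 and 419.5 CPM. C152-M1 also had 83.3 CPM of adipocyte markers, and the part of such cells was not tested.

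A test for any difference among the 8 lines called 31 of 39 collagens, against 76.7% of all 21383 genes, and included all 9 of the basement membrane. Among the 6 Ba/Sq lines alone 14 of 38 were called, against 50.5% of 20523 genes. The 14 held Col1a1 (adjusted p = 0.0361), Col1a2 (adjusted p = 0.0417), Col4a4 (adjusted p = 0.00123), Col4a6 (adjusted p = 5.16e-04), Col7a1 (adjusted p = 8.22e-04) and Col17a1 (adjusted p = 0.00725), and also Col26a1, which passed the filter through BURP-24BaSq alone. Their number ran from 10 to 28 with 1 tumor left out, 24 without C165-M30 of BURP-17BaSq and 28 without P4 of BURP-18BaSq, and was 25 with DESeq2.

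The 9 tumors of male and the 9 of female Ba/Sq lines did not differ in any called collagen, 0 of 36 in edgeR's test against 2.31% of all 17922 genes. At an unadjusted p under 0.05 there were 7, DESeq2 called 7, and 0 remained with counts summed per line. The nearest was Col11a2, a type XI chain, at 4.17 ± 2.49 CPM in male and 1.65 ± 0.735 CPM in female lines (SD, n = 9 each, adjusted p = 0.0511), followed by Col27a1 at 15.04 ± 16.3 and 3.07 ± 1.82 CPM (adjusted p = 0.0566), which among the male lines was highest in BURP-18BaSq.

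Of the 30 enzymes and chaperones that make and cross-link collagen, 11 were higher in BURP-16SR than in Ba/Sq (10.5% of all genes were), led by the procollagen protease Adamts14 (3.72, log2), the lysyl oxidase Loxl3 (2.72) and the protease enhancer Pcolce2 (2.596), and 1 was lower (8.62% of all genes), the prolyl 3-hydroxylase P3h2 (-3.64). In BURP-19NE the counts were near the shares of all genes (9.33% higher, 15% lower): 4 were higher, with the lysyl hydroxylase Plod2 at 2.39, and 5 lower, with the protease Adamts2 at -2.77. The protease Adamts3, also called lower, was at or under 3 counts in every BURP-19NE tumor. It passed the filter on low counts through the Ba/Sq tumors, so its fall is a description with no test. Between BURP-16SR and BURP-19NE 11 of 29 were higher in the former and 0 lower (14.8% and 8.86% of all genes), led by P4ha3 (5.13), a prolyl 4-hydroxylase. In BURP-12BaSq, where 4.59% of all genes were called, 5 were lower, among them the lysyl oxidase Lox (-4.21). Of the 9 receptors for collagen 8 were tested. Between BURP-16SR and BURP-19NE 6 were higher and 0 lower, led by the integrin chain Itga11 (4.06), Mrc2 (3.87), which takes up collagen, and the tyrosine kinase Ddr2 (3.46). Against Ba/Sq or the other Ba/Sq lines at most 1 was called per comparison. These were Mrc2 higher in BURP-16SR (1.91), the tyrosine kinase Ddr1 lower in BURP-19NE (-3.29) and the integrin chain Itga2 higher in BURP-18BaSq (2.36). In BURP-17BaSq 1 of the 8 was called higher as well, where 1.07% of all genes were called.

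By rank over the 24 tumors, the collagens most like Col1a1 were Col1a2 (rho 0.973), Col5a2 (0.971) and Col15a1 (0.904). Outside the family they were Gpx3 (0.969), a secreted glutathione peroxidase, Meg3 (0.959), a noncoding RNA, and Sparc (0.950), a collagen-binding matrix protein. Col11a1 had its nearest collagen in Col5a1 (0.772), and Col17a1 in Col4a5 (0.423). As descriptions these hold for libraries that the genes share.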

How the data were processed

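Total RNA of the tumors was depleted of ribosomal RNA and sequenced. The authors aligned the reads to GRCm38 with STAR 2.6.0a and deposited estimated counts per gene from RSEM 1.3.1, not normalized, per the labels. RSEM divides reads that fit several genes, and 12.45% of the values were not whole, so they were rounded. Counts of the genes in the table were used as given, with every column mapped to a sample. Symbols, positions and exon lengths came from an annotation of the same build, which held 99.64% of the identifiers.

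Levels were TMM-scaled CPM (edgeR 4.0.16 in R 4.3.3), divided by union exon length where genes are compared. Each of 12 comparisons was fitted on the whole table with filterByExpr and edgeR's glmQLFit and glmQLFTest, which treat tumors as replicates. A standard error was the log2 fold change over the root of its F statistic. Genes were called at an adjusted p under 0.05 and more than 2-fold, and in tests over several lines by the adjusted p. Line membership and sex were taken from the labels and the methods. Tumors of a line descend from 1 donor, so p-values measure the spread between these tumors.

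The members and lists were chosen with earlier results of these data known. Any collagen could be named, and values per tumor were given for abundant fibrillar chains, the basement membrane collagens, types VI, XII, XIV and XVII, and the largest called changes. Of the other lists at most 3 genes in each direction were named. In a test on simulated data, where 200 genes were given a 4-fold change, edgeR found 100% for BURP-16SR against Ba/Sq (21028 genes, 4.31% of calls false) and 94.5% for BURP-16SR against BURP-19NE (17556 genes, 4.55% false). That simulation used the same dispersion for every gene and no likeness within a line, so its rates need not hold for these tumors. Alternatives were DESeq2 1.42.0, its size factors, no filter, counts summed per line, the longest transcript as length, leaving out each tumor, and leaving out C102-M1 and C102-M30 together, the last chosen after the data were seen. The floors of 3 counts cover counting error only, whereas SDs and standard errors describe the spread between tumors.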

Additional observations from a re-analysis of the deposited data

How the results depend on the processing

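No paired analysis was made, as each line came from its own donor tumor and the labels match no tumors between lines. Collagens called in BURP-16SR against Ba/Sq numbered 18, with 4 to 21 when 1 tumor was left out, 1 with counts summed per line and 11 without C102-M1 and C102-M30. BURP-19NE against Ba/Sq gave 7, with 13 by DESeq2, 2 with counts summed per line and 4 to 9 with 1 tumor out, and BURP-16SR against BURP-19NE gave 15, with 5 to 25. In BURP-12BaSq there were 2, with 14 by DESeq2, 1 without the filter and 0 to 7 with 1 tumor out. DESeq2 called 2 in BURP-17BaSq and 1 in BURP-21BaSq, where edgeR called 0. In BURP-18BaSq it called 7 in place of 3 (2 to 8 with 1 tumor out) and in BURP-24BaSq 4 in place of 2 (1 to 3). For the sexes the count was 0, with 1 by DESeq2's size factors, 7 by DESeq2, 2 without the filter and 0 to 3 with 1 tumor out. Among the 6 Ba/Sq lines 14 became 25 by DESeq2 and 10 to 28 with 1 tumor out, and among the 8 lines 31 became 23 to 36. The cause was not tested. In simulated counts DESeq2 made 23.46% false calls for the 6 lines and edgeR 4.88%, and for the sexes DESeq2 made 0% and edgeR 0.5%. The simulated tumors had the same dispersion for every gene and no likeness within a line. These rates therefore do not say which calls on the real tumors are false. The length of the longest transcript brought the mean ratio of Col1a1 to Col1a2 from 3.37 to 1.61, and the ratio of Col3a1 to Col1a1 in C80-M3 from 72.6 to 115.7. Over 991 settings of 49 named results, 860 kept their side of the threshold, 130 fell below it, 1 rose above it, and none changed direction. Depth limits what can be said of the 15 collagens under 10 CPM, above all in C102-M30.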
